A study of Mus musculus with 12 samples.

Results

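The comparison of naïve with primed medium was made in mouse embryonic stem cells (ESCs) rescued with active TET2, and it rests on 6 of the 12 libraries of the series: WT TET2 rescue in 2i medium, replicates 1 to 3, and WT TET2 rescue in serum medium, replicates 1 to 3. The cells were Tet2 KO ESCs, in which exon 14 of Tet2 had been removed, and a stable line was made from them with a PiggyBac transposon that expresses WT TET2. All 12 libraries came from cells given an shRNA against Setdb1 (shSetdb1) by lentivirus, so both media were compared under SETDB1 depletion, and libraries without the shRNA were not analysed here. The other 6 libraries came from the same Tet2 KO ESCs rescued with a catalytically inactive TET2 mutant.

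The primed group was grown in serum medium, which is DMEM with 15% fetal bovine serum and LIF. The naïve group was grown in 2i medium, which is DMEM F-12 and neurobasal medium with the supplements N2 and B27, LIF, the MEK inhibitor PD0325901 and the GSK3 inhibitor CHIR99021. Cells stood on gelatin without feeders. Puromycin at 1 µg/ml was added 48 hours after infection and the cells were collected after 3 days of selection. Each rescue is a derived stable line, and TET2 came from an integrated construct rather than from the deleted gene alone. The labels do not say whether replicates were separate cultures, so the p-values measure only the spread between these samples, which may be technical.

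In 2i medium, blocking MEK shuts off the FGF-ERK signal that moves ESCs towards the epiblast of the implanted embryo, and blocking GSK3 stabilises β-catenin and so engages Wnt target genes. Serum-grown ESCs keep ERK active, receive BMP and other serum factors, and carry more 5-methylcytosine. SETDB1 is a histone methyltransferase that places H3K9me3 on endogenous retroviruses (ERVs), and TET2 oxidises 5-methylcytosine. Intracisternal A particles (IAPs) are young ERVs that SETDB1 holds silent in ESCs.

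Poly(A) RNA was sequenced without strand information, and the 6 libraries held 8066662 to 21335933 reads in genes and 3156928 to 13718028 reads in repeat classes. Values are on the variance-stabilised log2 scale of the study, whose lowest value, a count of 0, was 3.81 for genes and 2.51 for repeat classes. Differences are naïve minus primed on this scale, which compresses low counts, so differences of weakly read genes are smaller than the log2 ratio of their reads. Of 26061 genes, 14185 passed a filter on low values and were tested with limma over all 12 libraries, and a gene was called at an adjusted p under 0.05. ESC genes were well read in all 6 libraries, with 6936 to 18932 reads for Pou5f1 and 4149 to 14112 for Sox2, which encode core pluripotency factors. Of 19 fibroblast and feeder markers, 7 had 0 reads in each of them, among these Col1a2, Col3a1, Dcn and Postn. The summed level of the list was 184 to 384 normalised reads in naïve and 309 to 505 in primed libraries, and of the 7 markers tested Thy1 was higher in naïve cells (0.85) and Col5a2 (−2.95), Col5a1 (−1.33) and Twist1 (−0.78) were lower. In bulk RNA, fewer cells of a type and less RNA per cell cannot be told apart.

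Tet2 transcript was read in every library. It stood at 12.7, 13.1 and 14 in naïve replicates 1 to 3 and at 14.8, 14.6 and 15.1 in primed replicates 1 to 3, so the groups did not overlap and the naïve libraries were lower (difference −1.55, SE 0.34, adjusted p = 0.00207). These reads do not separate the construct from the locus. Setdb1, the target of the shRNA, stood at 7.73, 7.51 and 8.21 in naïve and at 8.19, 8.22 and 8.40 in primed libraries, where naïve replicate 3 reached into the primed range (difference −0.45, SE 0.25, adjusted p = 0.167).

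The medium changed a large part of the transcriptome. Of the 14185 genes tested, 5095 were called, which is 35.9%: 2637 were higher in naïve cells (18.6%) and 2458 were lower (17.3%). Differences over 1 on the log2 scale were called for 912 genes higher (6.43%) and 833 genes lower (5.87%). The 3 naïve and the 3 primed libraries did not overlap for 7095 genes (50%), and the median difference of all genes tested was 0.01.

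**Figure D1:**
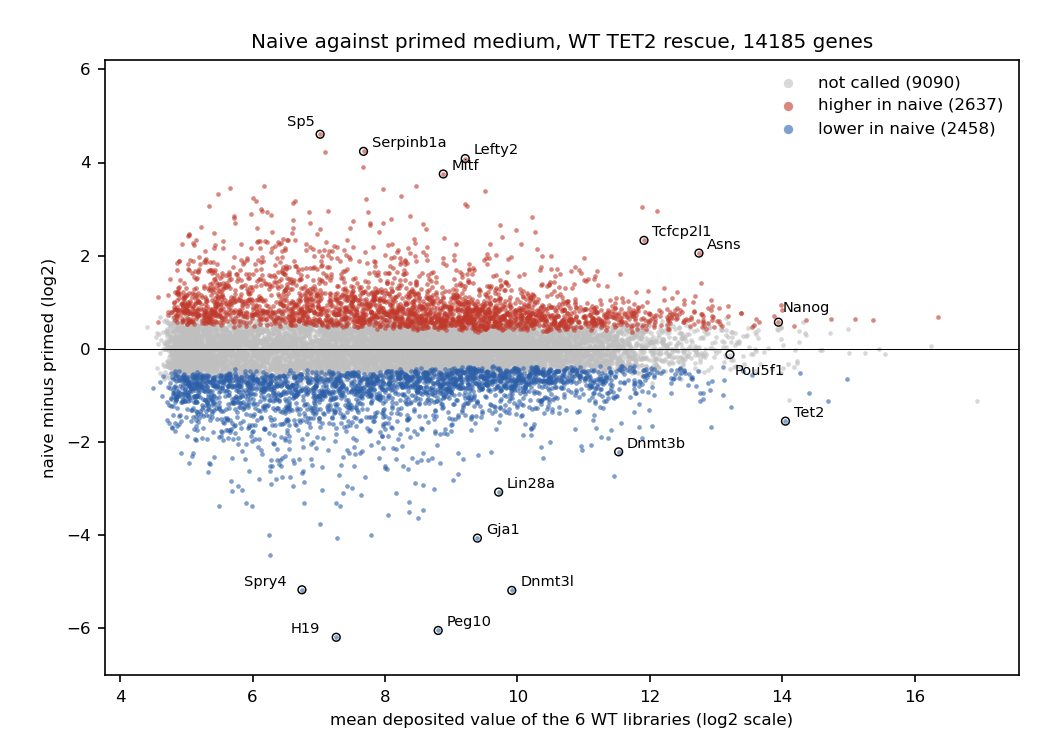
Difference between naïve and primed WT TET2 libraries (y axis, log2) against the mean deposited value of the 6 libraries (x axis, log2 scale) for 14185 genes, with red points for the 2637 called higher and blue points for the 2458 called lower in naïve cells. The largest differences lie below 0 and belong to H19, Peg10, Dnmt3l and Spry4, while Pou5f1 lies at −0.12.

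Imprinted and de novo methylation genes and targets of ERK led the genes that were lower in naïve cells. H19, an imprinted noncoding RNA, stood at 4.89, 3.81 and 3.81 in naïve libraries, the last pair being counts of 0, and at 10.4, 10.2 and 10.5 in primed libraries (difference −6.19, SE 0.30, adjusted p = 9.64e-10). Peg10, an imprinted gene derived from a retrotransposon and required for the placenta, stood at 5.84, 5.80 and 5.70 against 12, 11.8 and 11.6 (difference −6.04, SE 0.21, adjusted p = 2.40e-11). Both genes were separated from the primed libraries by a wide gap. Dnmt3l, the cofactor of the de novo DNA methyltransferases, fell from 12.5, 12.5 and 12.6 in primed to 6.80, 7.58 and 7.59 in naïve libraries (difference −5.18, adjusted p = 6.12e-10). Spry4, a feedback inhibitor of FGF-ERK signalling, had a difference of −5.17 and adjusted p = 6.36e-11. The other genes among the 12 with the largest negative differences were AU015836 (−4.43), the gap junction gene Gja1 (−4.06), the Polycomb-associated gene Phf19 (−4.06), the RNA-binding protein gene Rbm47 (−4.00), the ETS factor gene Etv4 (−3.99), the ERK phosphatase gene Dusp6 (−3.75), the neurofilament-like gene Ina (−3.62) and the Ras exchange factor gene Rasgrp2 (−3.57).

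Among genes that were higher in naïve cells, Sp5, a transcription factor gene that β-catenin activates directly, changed most. It stood at 8.43, 9.93 and 9.61 in naïve libraries and at 4.61, 4.90 and 4.64 in primed libraries (difference 4.61, SE 0.40, adjusted p = 3.58e-07). Naïve replicate 1 was the lowest of the naïve libraries and still lay well above every primed library. Lefty2, a secreted inhibitor of Nodal, stood at 9.97, 11.7 and 12.1 against 7.16, 7.52 and 6.83 (difference 4.08, SE 0.43, adjusted p = 2.71e-06). The serpin gene Serpinb1a (4.24), the transmembrane channel-like gene Tmc7 (4.22), the axonemal dynein gene Dnahc8 (3.90) and the basic helix-loop-helix factor gene Mitf (3.75) came next. Ly75 (3.5), Trpm1 (3.49), A2m (3.39), Slc22a16 (3.28) and Acss1 (3.22) were also among the 12 genes with the largest positive differences. Trpm1 is a known target gene of MITF in pigment cells, and both were higher in naïve cells.

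Core pluripotency genes divided between those that did not pass the test and a group that was lower in naïve cells. Pou5f1 stood at 13.1, 13.3 and 13.1 in naïve and at 13.3, 13.2 and 13.3 in primed libraries (difference −0.12, SE 0.18, adjusted p = 0.634), and Sox2 had a difference of −0.04 (SE 0.16, adjusted p = 0.869). Of 17 genes of the core list, 10 were lower and 2 higher, beside 17.3% and 18.6% of all genes. The list median was −0.47 against 0.01 for all genes. Lin28a, which blocks maturation of the let-7 miRNAs, stood at 7.55, 7.97 and 9.02 in naïve libraries and at 11.1, 11.3 and 11.3 in primed libraries (difference −3.07, SE 0.34, adjusted p = 4.69e-06). L1td1, an RNA-binding protein gene (−2.73), Utf1, a chromatin factor gene (−2.18), and Dppa2 (−1.58) were also lower. Naïve replicate 3 was the highest naïve library for Lin28a and L1td1. The 2 calls on the higher side were fragile, since none was left without naïve replicate 2 or without primed replicate 3 and 1 without any of naïve replicates 1 and 3 or primed replicate 1.

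The naïve pluripotency list did not move as one group. Of its 18 genes, 6 were higher and 5 lower, beside 18.6% and 17.3% of all genes, with a median difference of 0.16. Tcfcp2l1, a transcription factor gene of the LIF and Wnt network, stood at 13.3, 12.9 and 13 in naïve libraries and at 10.9, 10.3 and 11.0 in primed libraries (difference 2.33, SE 0.20, adjusted p = 4.14e-07). Prdm14, which represses FGF signalling and DNA methyltransferase genes, was higher by 1.64 (SE 0.19, adjusted p = 8.20e-06), followed by Tcl1 (1.10), Klf5 (0.81) and Pecam1 (0.80). Nanog was higher by 0.57 (SE 0.20, adjusted p = 0.0357), a call lost under 6 of 21 alternatives, where the adjusted p reached 0.146, among them leaving out naïve replicate 1 or 2 or primed replicate 1 or 3. Klf2, Klf4 and Esrrb gave 0.04, 0.29 and −0.20 and were not called (adjusted p = 0.890, 0.152 and 0.383). Nr0b1 (−0.78) and Sall1 (−1.06) were lower in naïve cells. The count of lower genes in this list fell to 2 without naïve replicate 1 and to 3 without primed replicate 3.

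Genes of the formative and primed epiblast were mostly lower in naïve cells. Of 17 tested, 10 were lower and 3 higher, beside 17.3% and 18.6% of all genes, with a median of −0.89. Otx2, the factor that drives exit from naïve pluripotency, stood at 4.81, 5.22 and 5.17 in naïve libraries and at 8.11, 8.0 and 7.34 in primed libraries (difference −2.75, SE 0.30, adjusted p = 4.79e-06). Foxp1 (−2.67) and the ETS factor gene Etv1 (−2.10) were lower as well. The 3 higher members were Lef1 (1.47), Sfrp2 (0.82) and Tead2 (0.61), of which Lef1 is also a Wnt target.

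**Figure D2:**
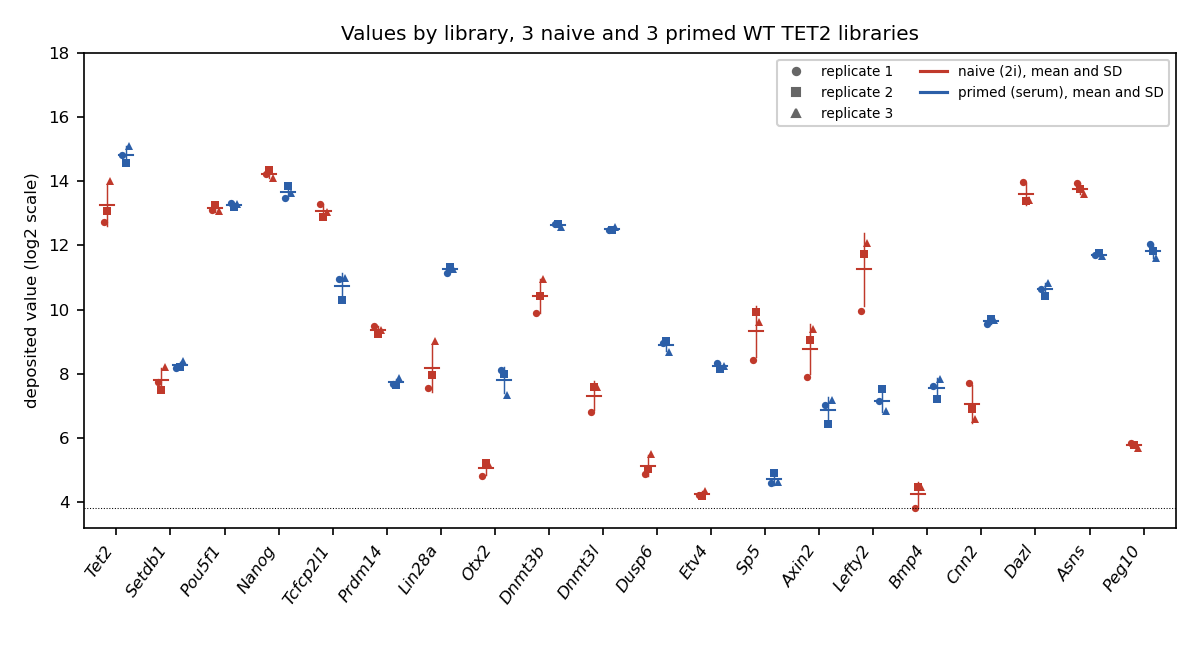
Deposited values (y axis, log2 scale) of 20 genes in each of the 3 naïve (red) and 3 primed (blue) WT TET2 libraries, with replicate numbers as symbols, the mean as a horizontal line, the SD as a vertical line and the value of a count of 0 (3.81) as a dotted line. The media are separated for Dnmt3l, Peg10, Dusp6, Etv4 and Asns, and overlap for Pou5f1 and Setdb1.

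The lists for the pathways that 2i medium addresses were counted next. In the FGF-ERK list, which holds feedback inhibitors and immediate targets, 15 of 18 genes were lower in naïve cells and the other 3 were not called. The list median was −0.98, and 17.3% of all genes were called lower. The phosphatase gene Dusp6 stood at 4.89, 5.03 and 5.50 against 8.97, 9.02 and 8.68, and Etv4 at 4.22, 4.19 and 4.36 against 8.34, 8.16 and 8.24. Egr1 (−3.37), Myc (−2.51) and Dusp4 (−2.48) were lower too. Junb (−0.51), Spry1 (−0.42) and Il17rd (0.21) did not pass the test.

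In the Wnt list, 6 of 12 genes were higher and 3 lower in naïve cells, beside 18.6% and 17.3% of all genes. The list median was 0.54. Besides Sp5, the homeobox gene Cdx1 (2.62), the negative regulator Axin2 (1.89) and Lef1 (1.47) were higher. Axin2 stood at 7.91, 9.04 and 9.39 in naïve and at 7.02, 6.45 and 7.19 in primed libraries, and Lef1 at 7.18, 8.30 and 8.24 against 6.59, 6.15 and 6.57. Naïve replicate 1 was again the lowest naïve library for both. Bmp4, which the list shares with the BMP list, and Ccnd2 were lower, by −3.31 and −1.92. The motif CTTTGAA or CTTTGAT was looked for in the promoter windows described below. Of the 12 genes 7 had a window, and 1 of their 11 windows (9.09%), that of Sp5, held a match, beside 8.65% of all windows.

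The Nodal and BMP list held calls in both directions. BMP4 induces the Id genes, which encode inhibitors of basic helix-loop-helix factors, and Bmp4 (−3.31), Id3 (−3.14), Id1 (−3.02) and Id2 (−1.91) were lower in naïve cells, while Id4 (0.73) was higher. Bmp4 was at 3.81, 4.46 and 4.48 in naïve libraries against 7.63, 7.20 and 7.84 in primed libraries. Lefty2 (4.08) and Lefty1 (1.75), both feedback inhibitors of Nodal, were higher. Lefty1 overlapped between groups, since naïve replicate 1 lay at 6.02 and the others at 8.93 and 9.03 against 5.74 to 6.62 in primed libraries (adjusted p = 0.0486). Of 13 genes, 7 were lower and 3 higher, beside 17.3% and 18.6% of all genes. Without the 4 libraries numbered 3, 1 was higher.

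A mixed list held targets of serum response factor (SRF) and YAP and genes of the cytoskeleton, keratin genes among them. Of its 24 genes tested, 17 were lower in naïve cells and 1 higher, beside 17.3% and 18.6% of all genes. The list median was −1.15. Cyr61, a secreted YAP target, stood at 6.74, 6.23 and 6.0 in naïve libraries against 8.96, 9.0 and 9.29 in primed libraries (difference −2.76, SE 0.22, adjusted p = 1.74e-07). The actin-binding calponin gene Cnn2 (−2.57), the matricellular protein gene Thbs1 (−2.45), with 0 reads in the 3 naïve libraries, and the keratin genes Krt18 (−2.38) and Krt8 (−2.30) followed, and Srf itself was lower by 1.19 on this scale (difference −1.19, adjusted p = 0.000431). The 1 higher gene, the tropomyosin gene Tpm4, lost its call when libraries were centred on their median, without any single primed library and without naïve replicate 1.

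The CArG box is the element that SRF binds. It was looked for, after the values had been seen, on both strands of the RefSeq promoter windows, which span 250 bases before to 50 bases after a gene start. Of the 24 genes 18 had a window and 5 of these held a match (Actg1, Cnn2, Myl9, Srf and Vcl), while 1.63% of 32851 windows of all genes did. Of those 5 genes, 3 were lower (Cnn2, Myl9 and Srf), and Actg1 (−0.32) and Vcl (−0.02) were not called. Of all 18 genes with a window, 12 were lower and 1 higher. The list was chosen to hold SRF targets, so its share of matches is no measure of the medium effect. The windows of Cnn2 and Srf are shown because Srf is the factor and Cnn2 had the largest difference of the 5, with matches in capitals, read 5′ to 3′ along the gene. They lie in mm9 at chr10:79451095-79451394 on the plus strand and chr17:46693062-46693361 on the minus strand. A match is a description and not a shown binding site.
Cnn2: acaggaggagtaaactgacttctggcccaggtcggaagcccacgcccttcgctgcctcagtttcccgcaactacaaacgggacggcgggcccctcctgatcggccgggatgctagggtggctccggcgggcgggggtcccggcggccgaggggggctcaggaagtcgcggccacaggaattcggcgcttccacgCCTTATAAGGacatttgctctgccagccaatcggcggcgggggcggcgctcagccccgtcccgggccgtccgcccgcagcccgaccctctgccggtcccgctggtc
Srf: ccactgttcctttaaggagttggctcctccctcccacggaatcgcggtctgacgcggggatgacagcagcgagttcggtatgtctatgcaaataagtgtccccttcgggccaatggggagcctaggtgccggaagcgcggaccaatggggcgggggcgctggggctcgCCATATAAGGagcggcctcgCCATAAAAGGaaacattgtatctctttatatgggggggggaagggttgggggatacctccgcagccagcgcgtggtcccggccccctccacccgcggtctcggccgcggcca

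De novo DNA methylation genes were lower in naïve cells. Of 12 genes of the DNA methylation list, 5 were lower (Dnmt3l, Dnmt3b, Dnmt3a, Trim28 and Tet2) and the other 7 were not called. Of all genes, 17.3% were called lower. Tet2 is counted here although its reads do not separate the rescue construct from the locus. The de novo methyltransferase gene Dnmt3b stood at 9.91, 10.4 and 10.9 in naïve libraries and at 12.7, 12.7 and 12.6 in primed libraries (difference −2.21, SE 0.28, adjusted p = 1.55e-05). Dnmt3a had a difference of −0.91 (SE 0.19, adjusted p = 0.00153). The maintenance genes Dnmt1 (0.03) and Uhrf1 (0.09) were not called, with adjusted p = 0.929 and 0.721, and neither was Tet1 (0.31, adjusted p = 0.359).

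Of 17 genes of H3K9 methylation and repeat silencing, 4 were lower and 1 higher, beside 17.3% and 18.6% of all genes. Trim28, which encodes the KAP1 corepressor that recruits SETDB1, stood at 14, 13.9 and 14 in naïve libraries and at 15.1, 14.7 and 14.9 in primed libraries (difference −0.94, SE 0.19, adjusted p = 0.000974). Daxx, a histone H3.3 chaperone gene (−0.70), Ehmt1, an H3K9 methyltransferase gene (−0.57), and the HP1β gene Cbx1 (−0.45) were also lower. The 1 higher gene, Setdb2 (0.64), was not called without naïve replicate 2 or 3 or primed replicate 1 or 3. Of 25 Polycomb subunit genes, 7 were lower and 3 higher, with a median of 0.00. Jarid2, which encodes a PRC2 accessory factor, was lower (−1.36), and the PRC1 genes Rnf2 (0.68) and Kdm2b (0.53) were higher. The lower count was 4 without naïve replicate 1 or without primed replicate 1, and the higher count was 1 without any single primed library.

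**Figure D3:**
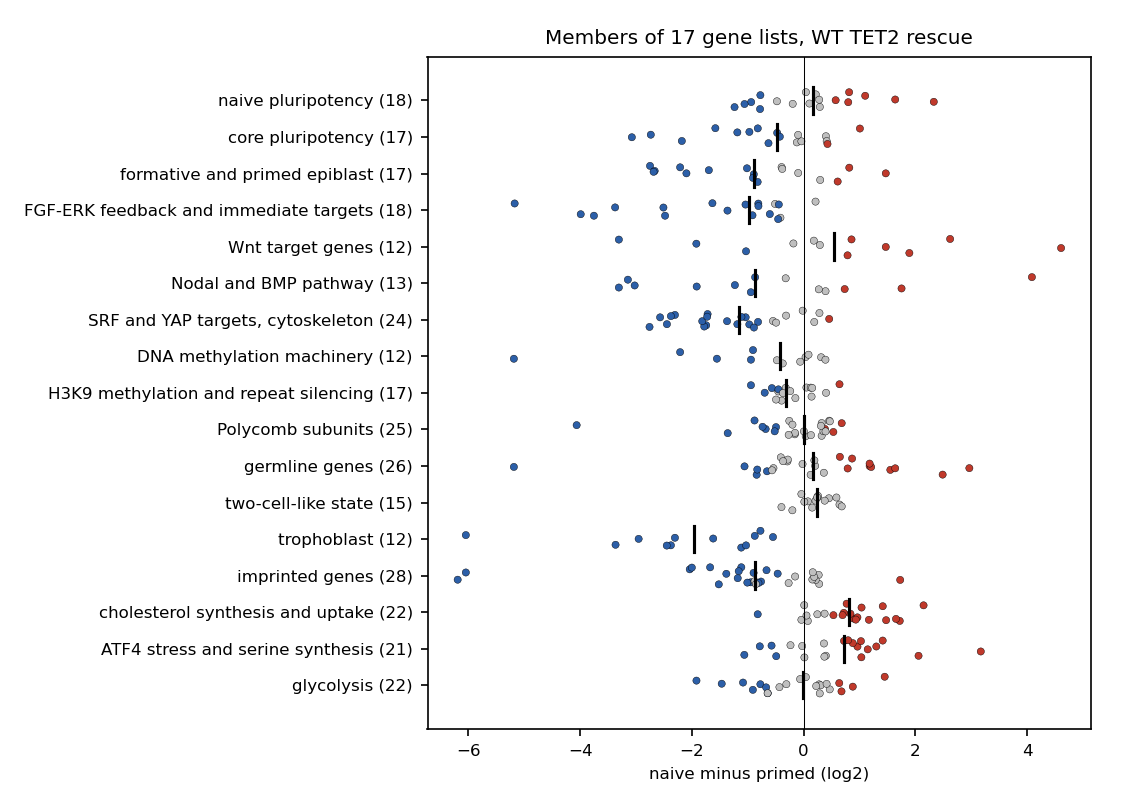
Differences between naïve and primed WT TET2 libraries (x axis, log2) of the tested members of 17 gene lists, whose numbers of members stand in brackets, with red for called higher, blue for called lower, grey for not called and a black bar at the list median. Medians run from −1.96 for the trophoblast list to 0.80 for the cholesterol list, beside 0.01 for all genes.

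Germline genes went in both directions, with 10 of 26 higher and 5 lower in naïve cells, beside 18.6% and 17.3% of all genes. The list median was 0.16. Dazl, an RNA-binding protein gene of germ cells, stood at 14, 13.4 and 13.4 in naïve libraries and at 10.6, 10.4 and 10.8 in primed libraries (difference 2.96, SE 0.36, adjusted p = 1.38e-05). Brdt, a testis bromodomain gene (2.49), and the synaptonemal complex genes Sycp1 (1.55) and Sycp3 (1.21) were higher. Dnmt3l, which is also on this list, was the lowest member, and the count of lower genes was 3 without naïve replicate 2 or without primed replicate 1. The E-box CACGTG, which the MGA and MAX subunits of a Polycomb complex bind at meiotic genes, was chosen after the values had been seen and looked for in the same windows. It was present in 11 of the 24 genes with a window and in 7.15% of all windows. Of those 11 genes, 5 were higher and 2 lower, so both directions were found among genes with a match. Of all 24 genes with a window, 9 were higher and 5 lower. The windows of Sycp3 and Brdt are shown as 1 synaptonemal and 1 bromodomain gene among the higher genes, with matches in capitals. They lie in mm9 on the plus strand at chr10:87922082-87922381 and chr5:107759963-107760262.
Sycp3: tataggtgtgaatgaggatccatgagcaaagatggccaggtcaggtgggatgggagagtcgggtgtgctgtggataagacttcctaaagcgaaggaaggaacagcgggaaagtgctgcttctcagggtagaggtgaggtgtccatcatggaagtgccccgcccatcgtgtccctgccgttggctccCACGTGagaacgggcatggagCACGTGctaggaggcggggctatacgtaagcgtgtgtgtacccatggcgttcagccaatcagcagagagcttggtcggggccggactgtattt
Brdt: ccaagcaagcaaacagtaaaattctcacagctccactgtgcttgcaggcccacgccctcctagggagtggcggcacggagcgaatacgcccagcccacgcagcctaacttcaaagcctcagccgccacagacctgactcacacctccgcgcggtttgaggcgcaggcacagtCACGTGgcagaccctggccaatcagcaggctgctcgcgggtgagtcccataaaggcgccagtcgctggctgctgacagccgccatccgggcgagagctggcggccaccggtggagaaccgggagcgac

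Imprinted genes were more often lower than higher in naïve cells, 17 against 1 of 28, beside 17.3% and 18.6% of all genes. The list median was −0.87. After H19 and Peg10, Sgce (−2.04), which neighbours Peg10, and Mest (−2.0) had the largest negative differences. Mest stood at 9.27, 9.50 and 9.69 in naïve libraries against 11.5, 11.5 and 11.4 in primed libraries. Plagl1, a zinc finger gene, was the 1 higher gene (1.73, SE 0.30, adjusted p = 0.000393).

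Genes of cholesterol synthesis were mostly higher in naïve cells. In the cholesterol list, 15 of 22 genes were higher and 1 lower, beside 18.6% and 17.3% of all genes, with a median of 0.80. Insig1, a sterol-regulated brake on cholesterol synthesis, stood at 11.3, 11.4 and 11.4 in naïve libraries and at 9.24, 9.39 and 9.03 in primed libraries (difference 2.15, SE 0.14, adjusted p = 2.63e-08). The synthesis enzymes Cyp51 (1.72), Dhcr7 (1.65) and Sc4mol (1.48) were higher.

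In the list of ATF4 targets and serine synthesis, 11 of 21 genes were higher and 4 lower, beside 18.6% and 17.3% of all genes. The list median was 0.72. Asns, the asparagine synthetase gene, stood at 13.9, 13.8 and 13.6 against 11.7, 11.8 and 11.7 (difference 2.06, SE 0.17, adjusted p = 2.08e-07). Nupr1 (3.17), a stress-induced chromatin protein gene, and Phgdh (1.03), the first enzyme of serine synthesis, were higher, and the amino acid transporter gene Slc7a3 was lower (−1.06). The lower count was 1 without naïve replicate 1 and 2 without primed replicate 3. Of 22 glycolysis genes, 7 were lower and 4 higher, beside 17.3% and 18.6% of all genes. The lower genes were led by the glucose transporter gene Slc2a1 (−1.92) and Pdk1 (−1.47), and the higher genes by Aldoc (1.45). The higher count was 2 without naïve replicate 1, without primed replicate 2 or without primed replicate 3.

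Markers of other cell types were counted for all lists, beside 18.6% of all genes called higher and 17.3% called lower. The trophoblast list was lower in naïve cells for all 12 genes tested, with a median of −1.96, and its summed level was 1247 to 1839 normalised reads in naïve libraries and 6171 to 7717 in primed libraries. Gata3, a trophoblast transcription factor gene, stood at the value of 0 reads in all 3 naïve libraries and at 7.27, 6.85 and 7.40 in primed libraries. Hand1 had 0 reads in naïve and 22 to 46 in primed libraries, Plac1 had 0 and 13 to 36, and Elf5 had 0 and 4 to 8. Tpbpa and Prl3d1, which mark differentiated trophoblast, had 0 reads in all 6. Several members are on other lists too (Peg10, Krt8, Krt18 and Ascl2), and the part of such cells in the results of the imprinted and cytoskeletal lists was not tested. Of 10 primitive endoderm genes, 3 were lower, led by the basement membrane gene Col4a1 (−2.17), and the other 7 were not called. Of 8 neural genes, 4 were lower, led by Tubb3 (−1.84), and 2 higher, of which 1 was left without naïve replicate 3 or primed replicate 1. Of 15 genes of the 2-cell-like state, which include the Zscan4 cluster, 0 were called with limma and 1 had an unadjusted p under 0.05, while 1 was called higher with limma-voom and TMM, 2 with the replicate block and 3 with the 6 WT libraries alone.

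The medium effect in the WT TET2 line was set beside that in the mutant TET2 line. The mean level of Tet2 transcript was lower in the mutant line in both media. It was 11.12 in naïve and 12.99 in primed mutant libraries, against 13.27 and 14.83 in WT libraries. The paper reports similar TET2 protein levels in the rescue lines by western blot. The part of the Tet2 level in differences between the lines was not tested. The mutant line had 4993 called genes (35.2%), and 3696 genes were called in the same direction in both lines, which is 72.5% of the WT calls and 74.0% of the mutant calls. Calls in opposite directions numbered 0. Of the 5095 WT calls, 5044 had the same sign in the mutant line. The difference of the medium effect between the lines was called for 0 genes with limma and for 0 with limma-voom, and 489 genes had an unadjusted p under 0.05 (3.45%). The differences were −6.19 and −3.71 for H19, −6.04 and −4.94 for Peg10, −5.18 and −5.17 for Dnmt3l, and 2.33 and 2.77 for Tcfcp2l1, in WT and mutant lines respectively.

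Repeat classes were tested as a separate table. The 4 libraries numbered 3 stood apart in the number of repeat classes with reads, 1064 to 1123 against 1008 to 1059 in the other 8. In naïve replicate 3, structural RNA classes (rRNA, tRNA and other small RNA genes) took 38.2% of the repeat reads, against 74.4% to 86.4% in the other 5 libraries, and that library had 3156928 repeat reads. The rRNA class SSU-rRNA_Hsa alone took 20% of repeat reads there and 40.7% to 53.1% in the others. The total of calls and the values of some classes are therefore also given without the 4 libraries numbered 3, a choice made after seeing the data.

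Of 1217 classes, 939 were tested, and calling a class needed both an adjusted p under 0.05 and a difference over 1. Called classes numbered 22 (2.34%), of which 15 were higher (1.60%) and 7 lower (0.745%) in naïve cells. The groups did not overlap for 135 classes (14.4%). Leaving out single libraries gave 8 calls (naïve replicate 1 or primed replicate 2), 11 (naïve replicate 2 or primed replicate 1), 12 (primed replicate 3) or 35 (mutant serum replicate 3), and 18 to 26 for each of the others. Without naïve replicate 3 the 23 calls were 10 higher and 13 lower, so the balance turned. Blocking on the replicate number, which the labels do not tie to a batch, gave 41 calls (4.37%), 28 higher (2.98%) and 13 lower (1.38%). Without the libraries numbered 3, 51 were called, 31 higher and 20 lower. Scaling changed the balance, since limma-voom with TMM called 21 higher and 18 lower, and recovered reads scaled by the gene size factors called 21 and 14. The median of all classes was 0.06 and moved to −0.12 with the gene size factors and to −0.06 without structural RNA classes in the scaling. The size factors of the repeat table were not the medians of ratios over its classes. For naïve replicate 3 the factor was 0.79 and the median of ratios 1.14.

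**Figure D4:**
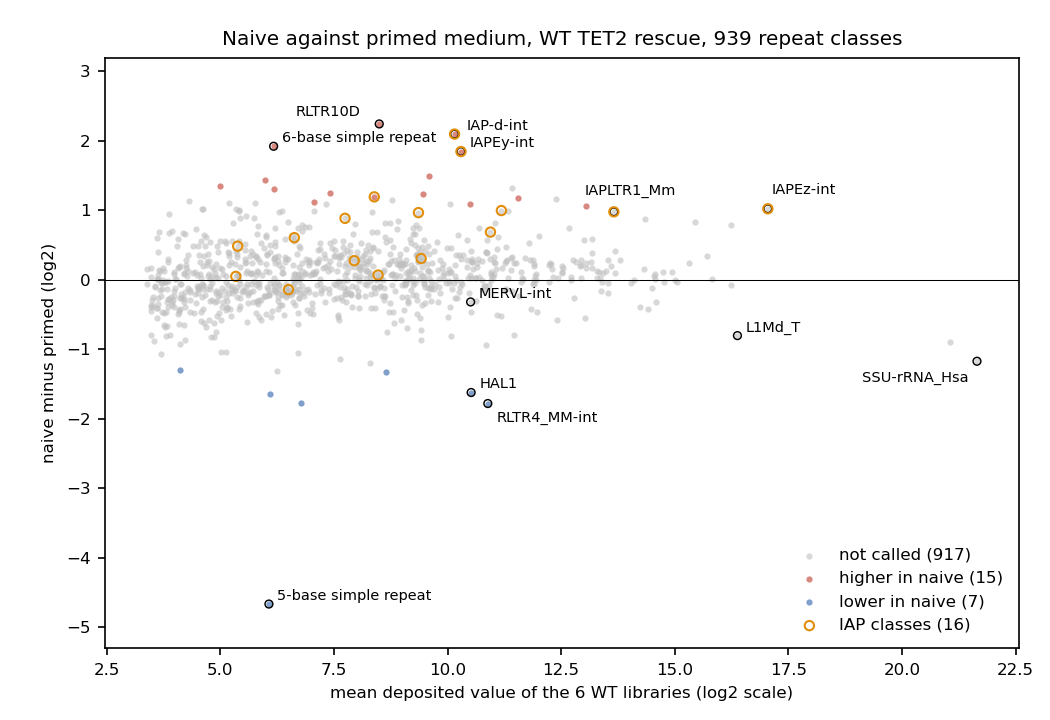
Difference between naïve and primed WT TET2 libraries (y axis, log2) against the mean deposited value of the 6 libraries (x axis, log2 scale) for 939 repeat classes, with red for the 15 called higher, blue for the 7 called lower and orange rings for the 16 IAP classes. Most IAP classes lie above 0, and the 5-base simple repeat (ATAAG)n lies alone at −4.67; the 6-base simple repeat is (TTGGGG)n.

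IAP classes lay mostly above 0. Of 16 IAP classes, 15 had a difference above 0, against 56.2% of all classes, the median was 0.79, and 3 were called higher. The internal sequence IAP-d-int stood at 10.9, 10.9 and 11.9 in naïve libraries and at 9.0, 8.84 and 9.48 in primed libraries (difference 2.10, SE 0.33, adjusted p = 0.000497). The internal sequence IAPEy-int stood at 11.7, 10.9 and 11.0 against 9.17, 9.55 and 9.40 (difference 1.85, SE 0.33, adjusted p = 0.00179), and its LTR IAPEY_LTR was higher by 1.19 (SE 0.29, adjusted p = 0.0235). Without the libraries numbered 3, 6 IAP classes were called higher. IAPEY_LTR lost its call when naïve replicate 1 or 2 or any primed library was left out.

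The most abundant IAP class, IAPEz-int, stood at 17.5, 17.5 and 17.7 in naïve libraries and at 16.1, 16.6 and 16.9 in primed libraries. The groups did not overlap, and the difference was 1.02 (SE 0.35, adjusted p = 0.144), or adjusted p = 0.0272 with the replicate block. Without the libraries numbered 3 it was 1.14 (adjusted p = 0.000435), and under quantile normalization, which ties the highest ranks of all libraries, it was 0.18. Its LTRs had differences of 0.98 (IAPLTR1_Mm, adjusted p = 0.0765), 1.00 (IAPLTR1a_Mm, adjusted p = 0.0551) and 0.69 (IAPLTR2_Mm, adjusted p = 0.219). IAPLTR1_Mm stood at 14.2, 14.2 and 14.1 in naïve and at 12.8, 13.2 and 13.5 in primed libraries, again without overlap. In the mutant line the differences were 1.60 for IAPEz-int, 1.77 for IAPLTR1_Mm, 1.57 for IAPLTR1a_Mm and 1.08 for IAPLTR2_Mm.

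Other ERV families differed in direction. RLTR10D, an LTR of the RLTR10 family, had the largest rise of any class, from 7.33, 7.09 and 7.71 in primed to 9.31, 9.57 and 9.97 in naïve libraries (difference 2.24, SE 0.28, adjusted p = 3.04e-05), and RLTR10E was higher by 1.23. The call of RLTR10E was lost when any single WT library was left out. The internal sequence MMERVK10C-int, an ERVK relative, was not called (0.05, adjusted p = 0.990), and neither was RLTR10C (−0.09, adjusted p = 0.973). Of 20 gammaretrovirus-like classes, LTRIS2 was higher (1.18) and RLTR4_MM-int lower (−1.78), and the call of LTRIS2 was lost without any single naïve library and without primed replicate 1 or 2. RLTR4_MM-int stood at 9.40, 9.79 and 10.8 in naïve and at 11.7, 11.3 and 12.3 in primed libraries, with replicate 3 the highest in both media (SE 0.41, adjusted p = 0.0192, and 4.15e-06 with the replicate block). Its call was lost without naïve replicate 1 or 2 or primed replicate 1 or 3, and its difference then ranged from −2.18 to −1.48 over all single libraries left out. MuLV-int (−0.31), MMVL30-int (−0.03), MMERGLN-int (0.24) and ETnERV2-int (0.08) were not called (adjusted p = 0.912, 0.991, 0.949 and 0.973).

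MERVL-int and its LTR MT2_Mm, which mark the 2-cell-like state, gave −0.32 and −0.01 (adjusted p = 0.949 and 0.995). MERVL-int stood at 10, 9.69 and 11.4 in naïve and at 10.5, 10.3 and 11.2 in primed libraries, with replicate 3 high in both. Young LINE-1 classes were below 0 for 6 of 6 classes, with a median of −0.53, and 0 were called with limma while 1 had an unadjusted p under 0.05. L1Md_T stood at 15.8, 15.8 and 16.4 against 16.9, 16.5 and 16.9 (difference −0.80, SE 0.29, adjusted p = 0.196), and L1Md_Gf had a difference of −0.94 (adjusted p = 0.599). L1Md_Gf was called without naïve replicate 3 (−1.57, adjusted p = 0.0337) and without the libraries numbered 3 (−1.26, adjusted p = 5.76e-05). Without the libraries numbered 3, L1Md_T had a difference of −0.94 (adjusted p = 0.0021), which is under the size needed for a call.

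Among the remaining called classes, the MaLR classes MLT1A1 (1.5) and MLT-int (1.10), RLTR44D (1.44), LTR85a (1.35), BGLII_A (1.31), MER92B (1.25), L1_Mur1 (1.06), and the simple repeats (TTGGGG)n (1.92) and (AACTG)n (1.12) were higher. HAL1, an ancient L1-derived element (−1.62), RLTR1D (−1.33), HERVL74-int (−1.30), the DNA transposon Kanga11a (−1.77) and the simple repeat (CGAAG)n (−1.65) were lower. Of all 22 calls, 7 were kept under every alternative, namely the simple repeats (ATAAG)n and (CGAAG)n, the IAP classes IAP-d-int and IAPEy-int, RLTR10D, HAL1 and (TTGGGG)n. L1_Mur1 lost its call under every other scaling.

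**Figure D5:**
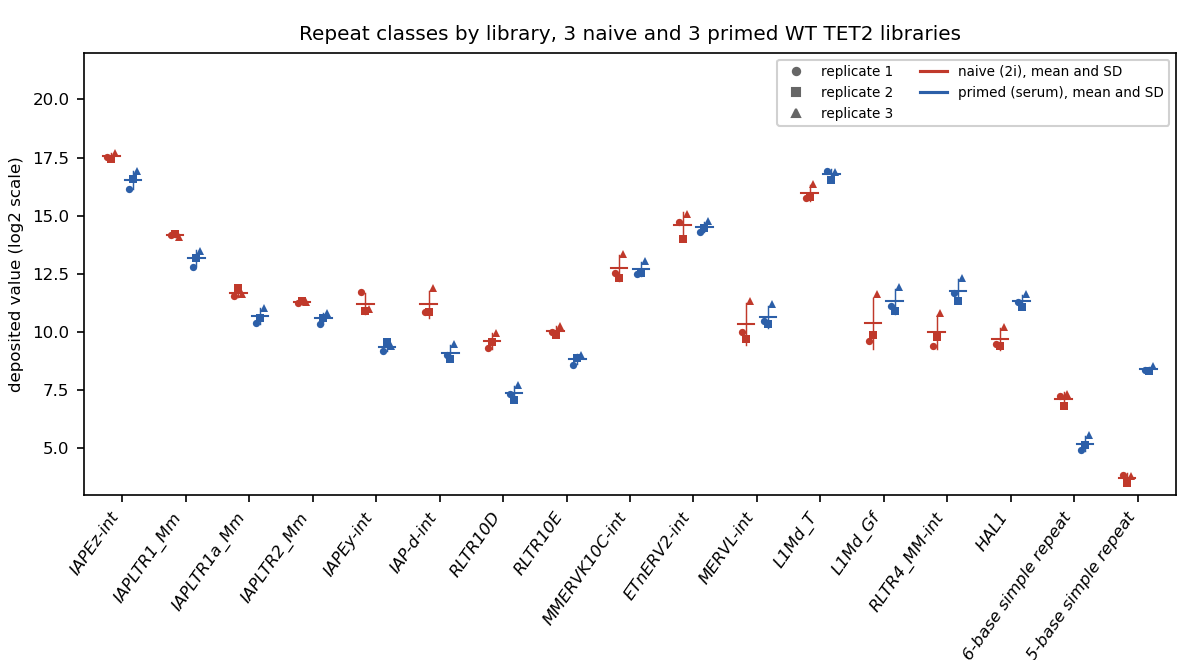
Deposited values (y axis, log2 scale) of 17 repeat classes in each of the 3 naïve (red) and 3 primed (blue) WT TET2 libraries, with replicate numbers as symbols, the mean as a horizontal line and the SD as a vertical line. RLTR10D and IAPEz-int are separated with naïve libraries on top, the 5-base simple repeat (ATAAG)n is separated with primed libraries on top, and MERVL-int overlaps.

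The simple repeat (ATAAG)n had the largest difference of any class. It stood at 3.86, 3.52 and 3.83 in naïve libraries, where the lowest held 3 reads, and at 8.36, 8.33 and 8.53 in primed libraries (difference −4.67, SE 0.29, adjusted p = 8.66e-11), and its difference in the mutant line was −3.80. The exons of all tested genes were searched in mm9 for at least 3 perfect ATAAG units in a row on either strand, and 1 gene held such an array, Peg10, at chr6:4709717-4709731 in an annotated UTR. This stretch is shown because Peg10 and the class moved together, with the array in capitals on the plus strand, from chr6:4709710-4709738.
Peg10 array: agataggATAAGATAAGATAAGctaggat
Peg10 fell by 6.04 on the log2 scale of the gene table, and which copies gave the reads of the class was not tested. For (TTGGGG)n, 4 tested genes held an array, of which Adm2 was higher (1.5), Esx1 (−0.77) and Phlda1 (−0.92) were lower and Ppp1r13l (−0.27) was not called.

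Repeat classes that the study listed as raised by SETDB1 depletion, in other libraries, were counted in the same way. Those lists compared depleted with control cells within each medium, in libraries depleted of ribosomal RNA. The values here compare the media, with both groups depleted of SETDB1, in poly(A) libraries, so they do not repeat the study's comparison. Of 49 classes listed for both media, 40 had a difference above 0, with a median of 0.49, and 6 were called higher and 1 lower. Of the classes listed for naïve cells alone, 53 were tested and 25 had a difference above 0, with a median of −0.03. Of these, 2 were called higher and 1 lower. Among all classes tested, 1.60% were called higher and 0.745% lower. The share above 0 was thus 81.6% and 47.2%, beside 56.2% of all classes. Counts of classes above or below 0 were made under the deposited scaling alone, and such counts depend on the scaling.

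The medium effect on repeat classes was called in the mutant line for 32 classes (3.41%), and 16 were called in the same direction in both lines, which is 72.7% of the WT calls and 50% of the mutant calls. All 22 WT calls had the same sign in the mutant line. The difference of the medium effect between the lines was called for 0 classes with limma and for 0 with limma-voom, and 4 had an unadjusted p under 0.05 (0.426%).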

How the data were processed

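RNA-seq libraries were made from poly(A) RNA of the 12 rescue samples. The authors trimmed reads with Trim Galore 0.3.3, aligned them to mm9 with TopHat 2.0.9, with each multiply aligned read kept at 1 random position, summed reads over genes and over RepeatMasker classes, and deposited variance-stabilised log2 values from DESeq2. Such placement lets reads of one repeat copy stand for another of its class.

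Inverting the transformation returned whole reads for all values (tolerance 0.01). The deposited log2 values were tested with limma 3.58.1 (R 4.3.3; 4 groups, variance trend, Benjamini-Hochberg adjustment) after a filter on a mean of at least 1 above the lowest value, and the script was tested on simulated data. Genes named were the 12 largest called differences in each direction without group overlap, leaving out predicted-gene and RIKEN names. Their higher group mean had to lie at least 4 above the lowest value. Called members of each list were named too, and some members that were not called. In several lists these were more than 4, or were not those with the largest differences. Repeat groups were assigned by name, and some name patterns were corrected after values had been seen. The gene lists, members and rules were chosen with earlier results of these data known. The labels do not say that a replicate number marks a shared batch. In the repeat table, deviations from group means correlated weakly between naïve and primed libraries of the same number. The correlations were 0.13, 0.16 and 0.30 for numbers 1, 2 and 3, and −0.19 to 0.03 between different numbers. Promoter windows were from RefSeq (GRCm38.p6) and were placed in mm9 by exact match. Alternatives included limma-voom with TMM factors, computed without a package, on recovered reads, other filters and scalings, the replicate block and leaving out each library. Counting depth limits weakly read genes and classes. Some genes that the naming rule selects are not reported here.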

Additional observations from a re-analysis of the deposited data

How the results depend on the processing

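Most gene results kept their direction and call. The count of genes called, 5095, was 1745 with a difference over 1 also required, and ranged from 3505 to 5639 when single libraries were left out. In the gene table, deviations from group means correlated at 0.22, 0.14 and −0.02 between naïve and primed libraries of the same number. Between different numbers the range was −0.30 to 0.18. The replicate block gave 4785 called genes. Of 123 called genes that were recomputed singly, 103 stayed called under every alternative. For repeat classes, the main 22 became 39 with limma-voom and TMM, 41 with the replicate block, 35 with the 6 WT libraries alone, 35 with the gene size factors, 38 without structural RNA classes in the scaling and 51 without the libraries numbered 3, and ranged from 8 to 35 over single libraries left out. The block changed the call of IAPEz-int among the IAP classes described. The difference between the lines was called for 12 genes and 1 repeat class with no filter on low values, and for 0 to 1 genes and 0 classes over single libraries left out. Signs turned for values near 0. Without the libraries numbered 3 these were Sox2 (0.00688), ETnERV2-int (−0.0285) and MMERVK10C-int (−0.0951). Dnmt1 was −0.0106 after quantile normalization. ETnERV2-int was −0.0117 centred on the median, −0.0251 with limma-voom and TMM, −0.0861 with the gene size factors and −0.0413 without structural RNA classes, and MMERVK10C-int was −0.0457, −0.0588, −0.121 and −0.0750 in that order and −0.142 after quantile normalization. Over single libraries left out, differences ranged from −0.142 to 0.173 for Klf2, from −0.106 to 0.0402 for Sox2, from −0.190 to 0.177 for Dnmt1, from −0.00219 to 0.137 for Uhrf1, from −0.820 to 0.0142 for MERVL-int, from −0.373 to 0.214 for MT2_Mm, from −0.155 to 0.381 for ETnERV2-int, from −0.270 to 0.252 for MMERVK10C-int, from −0.367 to 0.0475 for RLTR10C, from −0.139 to 0.132 for MMVL30-int and from −0.150 to 0.630 for MMERGLN-int. The cause of these shifts was not tested. With 3 libraries a group and few reads for many classes, a missed call does not show that a class did not differ.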

Other observations

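Targets of p53, genes of interferon and viral RNA sensing, and targets of LIF and STAT3 were also counted. Of all genes tested, 18.6% were called higher and 17.3% lower, and several of these counts lie near those shares. Of 19 p53 targets tested, 5 were higher and 3 lower in naïve cells, with a median difference of −0.11. Rrm2b, a ribonucleotide reductase subunit gene (1.60), Gdf15 (1.39) and the cell cycle inhibitor gene Cdkn1a (1.36) were higher, while Trp53 itself (−0.83) and Plk2 (−0.84) were lower. The lower count was 1 without primed replicate 1, and the higher count was 8 without mutant serum replicate 3.

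Of 16 genes of interferon and viral RNA sensing, 4 were higher (Bst2 by 1.27, Stat2 by 1.13, Oas1a by 0.82 and Mavs by 0.51), with a median of 0.11. The call of Mavs was lost under 11 of 21 alternatives, with an adjusted p of up to 0.185, among them leaving out naïve replicate 1 or 2 or any primed library. Of 16 targets of LIF and STAT3, 4 were higher, led by Fgl2 (2.44) and Tcfcp2l1 (2.33), and Cish (−1.10) and Gbx2 (−0.77) were lower. That lower count was 1 without naïve replicate 1 or 2 or primed replicate 1 or 3.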
